A study of Mus musculus with 12 samples.

Results

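The genes described here set the pace of the G1 phase of the cell cycle: the D-type cyclins Ccnd1, Ccnd2 and Ccnd3, the E-type cyclin Ccne1, the cyclin-dependent kinase (CDK) inhibitors Cdkn1a, Cdkn1b, Cdkn2a and Cdkn2b, and the transcription factors Myc and Mycn. The rule that picks them goes by name and uses no measured value, although the names were proposed with earlier results of these data known. Every probe set whose single gene symbol was among them was taken, which gave 25 of the 45101 probe sets on the array and 10 of the 18194 genes measured. RNA of TBV2, wild-type embryonic stem cells of mouse strain 129/SvP, was measured on 12 Affymetrix arrays. The control group was cultured for 5 days without added L-proline, and the proline group for the same 5 days with 500 µM L-proline. Cells of both groups were plated at low density on gelatin with no feeder cells, in complete medium that held leukemia inhibitory factor (LIF), the cytokine that keeps mouse stem cells pluripotent, and lacked non-essential amino acids. All arrays came from this single cell line, so that the results describe that line alone. Each group has 6 arrays, which the titles number as 2 biological replicates of 3 arrays each. The 3 arrays of a replicate were averaged, which left 2 values per group. The p-values rest on the spread between these 2 values, moderated by the spread over all genes (2 residual and 2.60 prior degrees of freedom). The spread between replicates may be partly technical because the labels do not say how the biological replicates were kept apart.

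In most cells, mitogens raise the D-type cyclins, which bind CDK4 or CDK6 and begin to phosphorylate the retinoblastoma (RB) family of proteins. RB then releases E2F factors, cyclin E activates CDK2, and the cell enters S phase. The CIP/KIP inhibitors p21 and p27 hold back cyclin E and CDK2, the INK4 inhibitors p15 and p16 hold back CDK4 and CDK6, and MYC proteins drive growth and the transcription of cell cycle genes. Mouse embryonic stem cells are known for a short G1 phase, little RB control, low INK4 expression and dependence on MYC and MYCN.

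Across probe sets, Pearson's r between arrays was 0.996 to 0.998 within a replicate, 0.985 to 0.989 between the replicates of a group, and 0.962 to 0.981 between the groups. The 5 markers of pluripotent cells, Pou5f1, Sox2, Nanog, Zfp42 and Esrrb, all lay above the 40th percentile of probe set means (a log2 signal of 5.36, under which a probe set is called dim here), and Zfp42 and Esrrb were 2 of the 243 genes that fell. Limma, a linear model fitted to all genes, called 794 genes at a Benjamini-Hochberg adjusted p under 0.05, which is 4.36% of those tested, with 551 higher (3.03%) and 243 lower (1.34%) after proline. Sox2, Nanog and Pou5f1 did not pass, at log2 fold changes (proline minus control) of -0.55, -0.54 and -0.29.

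None of the 10 genes changed by this test: 0 passed an adjusted p of 0.05 in limma, against the 4.36% of all genes, and 3 had an unadjusted p under 0.05, all with lower signals after proline, against 22.1% of all genes in either direction and 9.32% in the lower one. The 3 D-type cyclins measured -1.35, -0.65 and -0.50 in log2 fold change (proline minus control), while Ccne1, Cdkn1a, Cdkn1b, Cdkn2b, Myc and Mycn lay between -0.21 and 0.24. Only Ccnd2 of the 10 was at least 2-fold lower, as were 2.26% of all genes. The median over the 10 genes was -0.19, beside -0.03 over all genes, and 7 of 10 were below 0, beside 56.1% of all genes. In 4 genes, Ccnd1, Ccnd2, Ccnd3 and Cdkn2a, all 6 proline arrays lay below all 6 control arrays, which held for 10.8% of all genes, and in 0 genes did they lie above, which held for 13.8%. The difference between group means exceeded both differences between biological replicates in 3 of 10 genes, Ccnd2, Ccnd3 and Cdkn2a, against 39.9% of all genes. In bulk RNA, fewer cells that express a gene and less of its RNA per cell cannot be told apart.

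**Figure D1:**
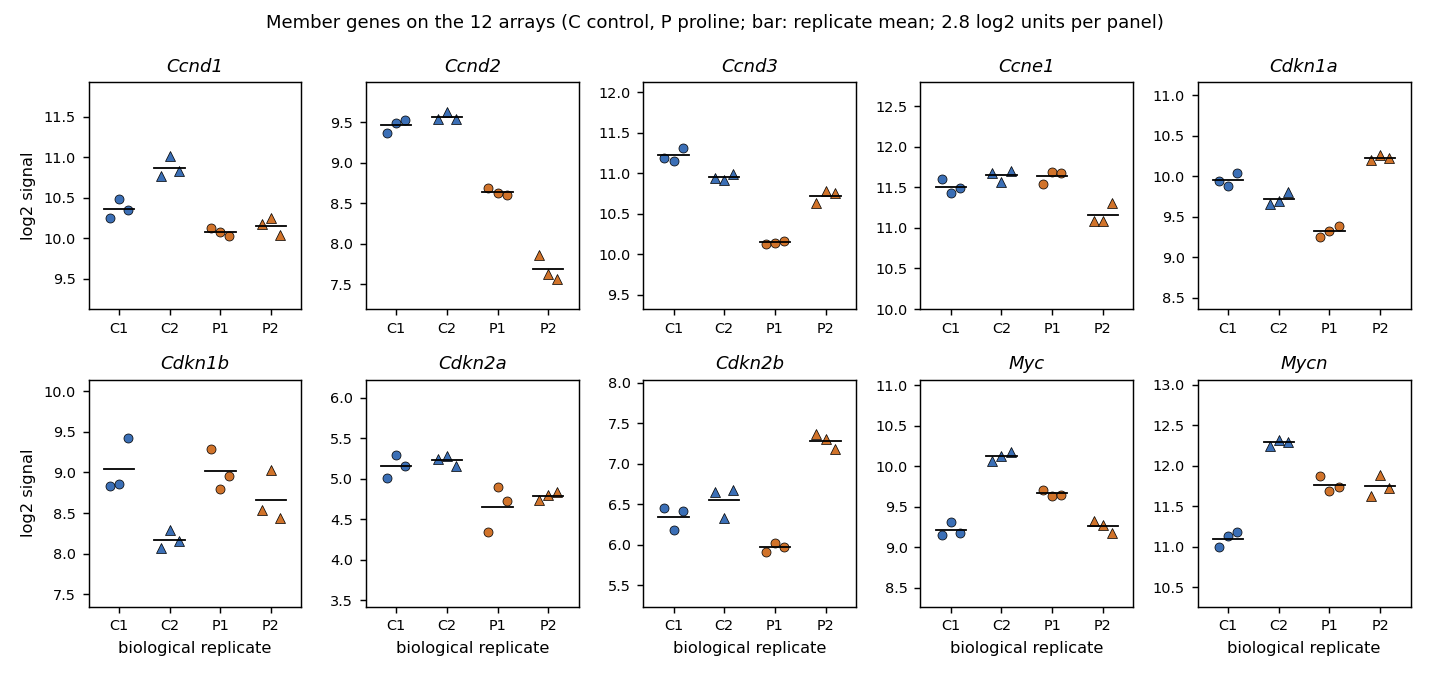
Log2 signal of the 10 genes on each array, by biological replicate (C1 and C2 control, P1 and P2 proline), with circles for replicate 1, triangles for replicate 2 and a bar at the mean of the 3 arrays; each panel spans the same range of log2 units around its own centre. Ccnd2 shows the widest separation of the groups, whereas Myc and Mycn differ more between the 2 control replicates than between the groups.

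Promoters of 7 of the 10 genes were found in a RefSeq table of build GRCm38.p6, with 10 start sites in all. Those of Ccnd3 and Cdkn2a are shown because each is a gene with lower signal on all proline arrays and with 2 annotated start sites, so that its probe sets may read RNA from either start. Each run holds the 250 bases before a start site, 5′ to 3′ on the gene's own strand, with matches to the motifs below in capitals.
Ccnd3 start 1, chr17:47504801-47505050, plus strand: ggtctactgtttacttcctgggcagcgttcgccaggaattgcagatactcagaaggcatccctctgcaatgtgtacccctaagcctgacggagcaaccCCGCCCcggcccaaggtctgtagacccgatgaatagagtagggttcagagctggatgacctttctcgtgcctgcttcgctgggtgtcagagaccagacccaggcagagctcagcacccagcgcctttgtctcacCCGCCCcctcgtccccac
Ccnd3 start 2, chr17:47593217-47593466, plus strand: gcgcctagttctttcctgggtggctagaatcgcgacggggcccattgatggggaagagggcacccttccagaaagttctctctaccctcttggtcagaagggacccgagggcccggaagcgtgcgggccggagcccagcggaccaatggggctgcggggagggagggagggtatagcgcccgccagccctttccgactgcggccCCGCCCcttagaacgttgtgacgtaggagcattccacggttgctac
Cdkn2a upstream start, chr4:89294620-89294869, minus strand: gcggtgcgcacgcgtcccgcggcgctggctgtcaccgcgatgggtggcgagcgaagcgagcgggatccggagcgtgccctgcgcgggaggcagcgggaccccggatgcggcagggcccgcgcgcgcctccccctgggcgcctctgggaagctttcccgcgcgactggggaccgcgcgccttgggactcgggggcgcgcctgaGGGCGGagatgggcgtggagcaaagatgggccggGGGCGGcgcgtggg
Cdkn2a downstream start, chr4:89282193-89282442, minus strand: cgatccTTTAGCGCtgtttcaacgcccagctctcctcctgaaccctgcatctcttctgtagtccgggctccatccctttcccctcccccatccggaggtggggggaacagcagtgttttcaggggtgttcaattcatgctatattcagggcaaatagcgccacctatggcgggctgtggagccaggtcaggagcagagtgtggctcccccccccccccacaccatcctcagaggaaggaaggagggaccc
Cdkn2a encodes p19ARF from the upstream start and p16INK4a from the downstream start. Searched on both strands were the E-box of MYC and MAX (CACGTG), an E2F site (TTTNGCGC), the GC box of SP1 (GGGCGG), the cyclic AMP response element (TGACGTCA) and an AP-1 site (TGANTCA), and no matches of different motifs overlapped in these runs. The GC box was found in both Ccnd3 starts, with 2 matches and 1 match, and with 2 matches in the upstream start of Cdkn2a. It is present in 32.7% of the 32851 promoter windows of the same length. The downstream start of Cdkn2a held 1 E2F match, a motif found in 1.13% of windows. These 4 windows held 59.6%, 64.8%, 78.4% and 60.0% G and C, against a median of 52.4% over all windows. A match to these letters is a description of the window and not evidence of binding.

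Among the D-type cyclins, Ccnd2 had the largest difference. Its 6 control arrays ran from 9.37 to 9.62 with a median of 9.53, and its 6 proline arrays from 7.56 to 8.68 with a median of 8.23. The groups did not overlap, and the lowest control array was 0.69 above the highest proline array. The biological replicates read 9.46 and 9.56 in control and 8.64 and 7.68 after proline. The controls were thus close together, and proline replicate 2 was lower than proline replicate 1 by 0.95. The log2 fold change was -1.35 ± 0.33 (moderated SE, n = 2 biological replicates per group), a measured 2.55-fold lower level, with a 95% interval from -2.23 to -0.47 and an adjusted p of 0.109 in limma. All 4 pairs of a proline with a control replicate were below 0, from -0.82 to -1.88. Without proline replicate 2 the value was -0.87 and without proline replicate 1 it was -1.83.

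All 7 probe sets of Ccnd2 were lower after proline. Their log2 fold changes ran from -0.76 to -1.45 with a median of -1.23, and each had an unadjusted p under 0.05 in the fit over probe sets, as did 8.29% of all probe sets in the lower direction. The 2 weakest, 1416123_at (-0.85 ± 0.30) and 1416124_at (-0.76 ± 0.15), were dim. In 6 of the 7 all proline arrays lay below all control arrays, beside 9.07% of all probe sets, the exception being 1416123_at. The 7 probe sets report on the same RNA and are not replicates. Proline replicate 2 lay below proline replicate 1 in all 7, by 0.31 to 1.22.

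Ccnd3 was the next. Control arrays ran from 10.92 to 11.31 (median 11.07) and proline arrays from 10.13 to 10.78 (median 10.40). The groups did not overlap, by a margin of 0.14. Control replicates read 11.22 and 10.95, and proline replicates 10.15 and 10.72, so that here proline replicate 1 was the lower one, opposite to Ccnd2. The log2 fold change was -0.65 ± 0.24 (n = 2 per group, adjusted p = 0.212 in limma). The probe set 1444323_at of Ccnd3 had a smaller spread: its replicates read 7.58 and 7.55 in control and 6.83 and 6.86 after proline, a difference of -0.72 ± 0.11 (adjusted p = 0.0757 over all probe sets). The remaining probe set, 1438805_at, was dim, at 4.33, 4.39, 4.38 and 4.19 in the same order, and measured -0.07 ± 0.12.

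Ccnd1 had the smallest difference of the D-type cyclins. Its control arrays ran from 10.24 to 11.01 (median 10.63) and its proline arrays from 10.03 to 10.24 (median 10.11). The groups touched, since the lowest control array was only 0.001 above the highest proline array. Replicates read 10.36 and 10.87 in control and 10.08 and 10.15 after proline, so that the controls differed by 0.51 and the proline replicates by 0.07. The log2 fold change was -0.50 ± 0.20 (n = 2 per group, adjusted p = 0.254 in limma), and the 4 pairs lay between -0.21 and -0.79. The other 2 probe sets of Ccnd1 measured -0.33 ± 0.11 and -0.44 ± 0.15, and in these too the arrays did not overlap. Whether the 3 D-type cyclins differ from each other in response was not tested. Their 95% intervals overlapped, at -2.23 to -0.47 for Ccnd2, -1.27 to -0.03 for Ccnd3 and -1.03 to 0.04 for Ccnd1. A fit of the 12 arrays with the biological replicate as a random block takes most of its degrees of freedom from the repeat arrays of each replicate. In that fit all 3 passed, with adjusted p of 2.72e-04 for Ccnd2, 0.0358 for Ccnd1 and 0.00646 for Ccnd3, as did 3987 of all genes, whereas on replicate means none of the 3 passed.

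**Figure D2:**
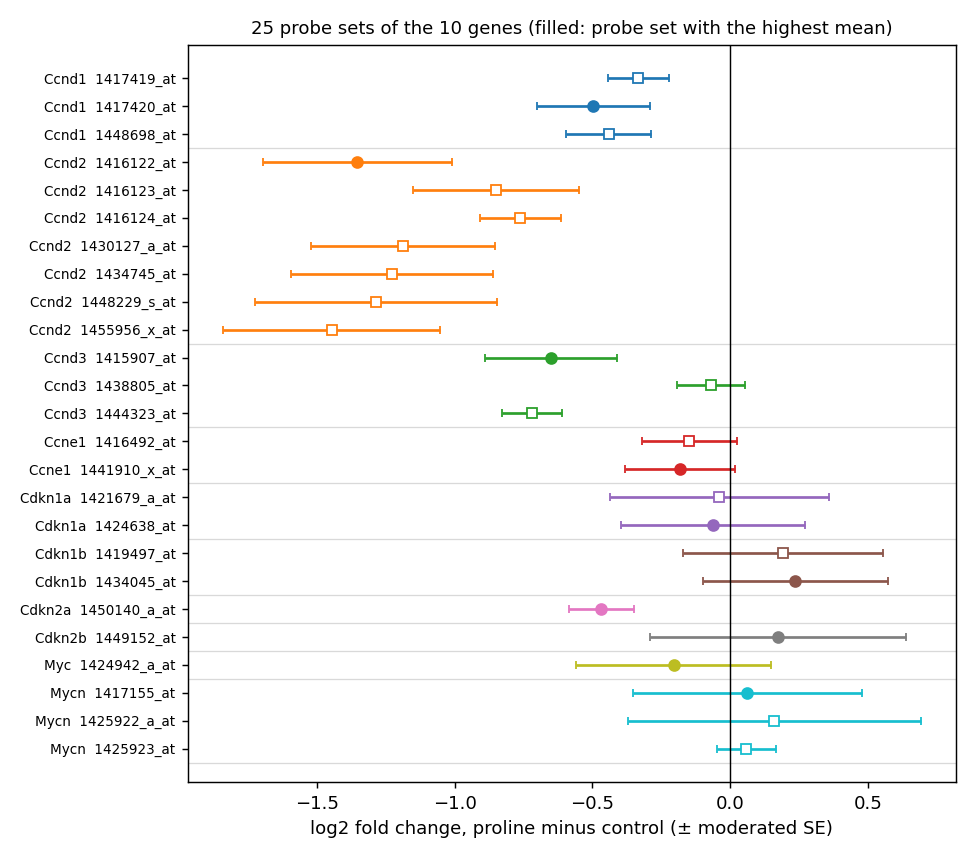
Log2 fold change (proline minus control) with its moderated standard error for the 25 probe sets, by gene; filled circles mark the probe set with the highest mean, which stands for the gene, and open squares the others. The 13 probe sets of the D-type cyclins are all below 0, from -0.07 to -1.45, and those of the other genes, Cdkn2a apart, have errors that reach 0.

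Markers of cell state and measures of the RNA were read beside these values, and some of them separated the groups. The 5 pluripotency markers had a summed signal of 15.04 and 15.02 in the control replicates and of 14.41 and 14.28 in the proline replicates (log2 of the sum). The summed signal of 7 extraembryonic endoderm markers was 8.25 to 8.56 in control and 9.19 to 9.55 after proline, with 0 of 7 past the threshold and 4 of 7 dim. Of these, Dab2 measured 1.68 ± 0.28 (adjusted p = 0.0545) and the other 6 lay between -0.11 and 0.33. That of 7 trophoblast markers was 10.6 to 11.9 and 11.4 to 13.0, with 0 of 7 past the threshold, 2 of 7 dim and ranges that overlapped. That of 8 fibroblast markers was 9.18 to 9.76 and 9.12 to 9.62, with 0 of 8 past the threshold, 3 dim and ranges that overlapped. The 18S rRNA probe sets read 10.74 and 10.04 in control and 9.74 and 8.35 after proline, a difference of -1.35 with no overlap of the replicates and with proline replicate 2 the lowest, as for Ccnd2. The log2 difference between the 5′ and 3′ probe sets of the actin control, which reads RNA integrity, was -0.90 and -0.50 in control and -0.66 and -0.24 after proline, so that the groups overlapped, and that of the Gapdh control differed by 0.06. The poly-A spike-in signal differed by -0.45, at 9.10 and 8.72 in control and 8.72 and 8.19 after proline, again without a separation of the replicates by group. The part of these measures in the lower D-type cyclin signals was not tested.

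Ccne1, the cyclin that activates CDK2, differed little between the groups. Its control arrays ran from 11.43 to 11.71 and its proline arrays from 11.08 to 11.69, and the groups overlapped. The replicates read 11.51 and 11.65 in control and 11.64 and 11.16 after proline, with only proline replicate 2 below the rest. The log2 fold change was -0.18 ± 0.20 (adjusted p = 0.683), with a 95% interval from -0.70 to 0.34, and the other probe set measured -0.15 ± 0.17.

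The CIP/KIP inhibitors had mean differences near 0 and large spreads between replicates. Cdkn1a encodes p21, the inhibitor that p53 induces. Its control arrays ran from 9.66 to 10.03 (median 9.84) and its proline arrays from 9.25 to 10.26 (median 9.79). All 3 arrays of proline replicate 1 (mean 9.32) lay below every control array and all 3 of proline replicate 2 (mean 10.23) above them, with control replicates at 9.95 and 9.72. In the other probe set of Cdkn1a too, the proline replicates, at 8.90 and 10.03, lay below and above the controls, at 9.49 and 9.53. The log2 fold change of -0.06 ± 0.33 (adjusted p = 0.943) therefore averaged 1 replicate below and 1 above the controls, and its 95% interval ran from -0.93 to 0.80.

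Cdkn1b encodes p27, which restrains cyclin E and CDK2 and is degraded through the SKP2 ubiquitin ligase. Here the controls were the ones apart, at 9.04 and 8.17, with proline replicates at 9.02 and 8.67. Control arrays ran from 8.06 to 9.43 and proline arrays from 8.44 to 9.29, so that the proline range lay inside the control range. The second, dimmer probe set gave 6.83 and 5.88 in control and 6.74 and 6.35 after proline, the same order. Cdkn1b measured 0.24 ± 0.33 (adjusted p = 0.764), and all 3 arrays of control replicate 2 were below every other array for this gene.

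The INK4 genes Cdkn2a and Cdkn2b, neighbours in the genome, have 1 probe set each. Cdkn2a read 5.16 and 5.23 in control and 4.66 and 4.79 after proline. Its arrays did not overlap, from 5.02 to 5.30 against 4.35 to 4.90, and the log2 fold change was -0.47 ± 0.12 (adjusted p = 0.115). This probe set was dim, at the 34.1 percentile of mean signal, and no detection call was used to separate it from background. Nor can this probe set be assigned here to p16 or p19ARF.

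Cdkn2b encodes p15, an inhibitor induced by TGF-beta in many cells. Control replicates read 6.35 and 6.56, and proline replicates 5.97 and 7.29, so that proline replicate 1 lay below both controls and proline replicate 2 above them, as for Cdkn1a. The gap of 1.32 between the proline replicates was the widest between biological replicates among the 10 probe sets that stand for the genes. Cdkn2b measured 0.17 ± 0.45 (adjusted p = 0.882), with a 95% interval from -1.02 to 1.37 that holds changes of more than 2-fold in either direction.

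Myc and Mycn encode c-MYC and N-MYC, which support self-renewal and growth of these cells. Myc read 9.21 and 10.12 in control and 9.66 and 9.26 after proline. The highest and the lowest replicate were thus both controls, and the log2 fold change was -0.21 ± 0.35 (adjusted p = 0.809). Mycn read 11.10 and 12.29 in control and 11.77 and 11.75 after proline. The proline replicates were within 0.02 of each other and lay between the controls, which differed by 1.19. Mycn measured 0.06 ± 0.41 (adjusted p = 0.957), with a 95% interval from -1.01 to 1.13.

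The probe sets of Mycn did not agree on the spread between controls. Probe set 1425922_a_at read 8.02 and 9.52 in control, a gap of 1.49, and 8.75 and 9.11 after proline. Probe set 1425923_at read 6.84 and 6.83 in control and 6.90 and 6.89 after proline, with no gap of that kind. In Myc and in the first 2 probe sets of Mycn control replicate 2 was the higher control, and all 3 of its arrays were above all other arrays. No exact permutation test was run on single genes, since with 2 replicates per group its smallest two-sided p is 0.333.

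**Figure D3:**
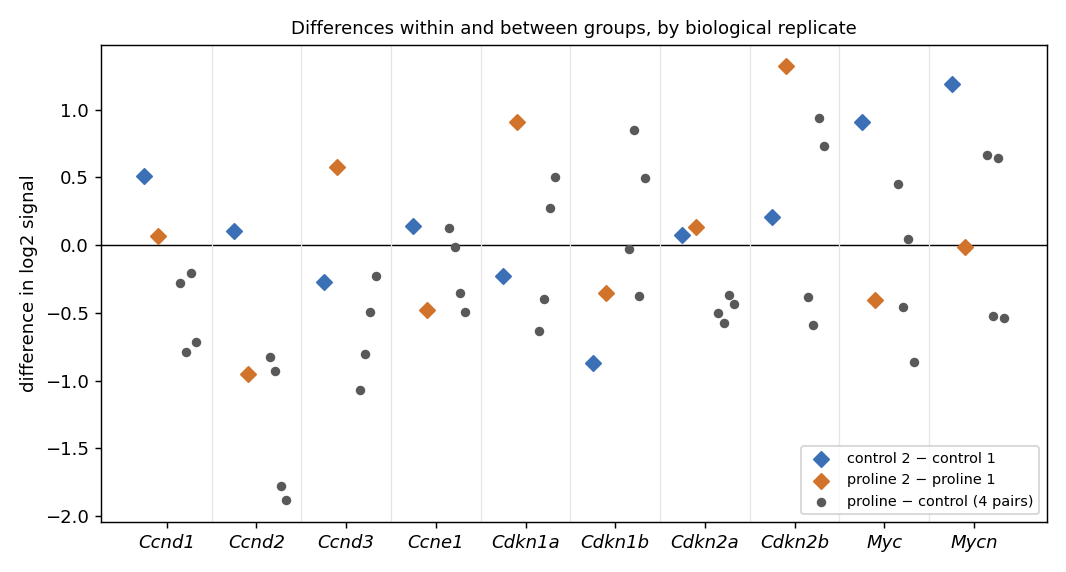
For each gene, the difference in log2 signal between the 2 control replicates and between the 2 proline replicates (diamonds), and the 4 differences between a proline and a control replicate (grey dots). All 4 grey dots lie below 0 for the 3 D-type cyclins and Cdkn2a, and they fall on both sides of 0 for the other 6 genes.

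Genes that work with these cyclins and inhibitors were read from the same fit, as 8 lists with 96 measured entries, of which 5 passed the threshold, beside 4.36% of all genes. The share of all genes with an unadjusted p under 0.05, to be read beside the counts at that level below, was 22.1%. Leaving out any 1 biological replicate ended every call of the test, so that the loss of the 5 calls there was not particular to them. In those fits Rbl2 ran from -1.70 to -1.38, E2f2 from -1.10 to -0.87 and Tbx3 from -3.23 to -2.04. Cul4a ran from 0.71 to 0.74 and Hmga2 from 1.68 to 2.01. Among kinases and cyclins that partner the G1 cyclins, 0 of 9 passed in limma and 1 had an unadjusted p under 0.05, with a list median of 0.10. The CDK4/6 kinases measured -0.12 ± 0.13 for Cdk4 and 0.47 ± 0.32 for Cdk6, and Cdk2 measured 0.14 ± 0.13. The phosphatase gene Cdc25a, which activates CDK2, measured 0.32 ± 0.12 (adjusted p = 0.223), and the second E-type cyclin Ccne2 0.40 ± 0.20 (adjusted p = 0.349).

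In the RB and E2F list, 2 of 13 fell, 0 rose and 11 did not pass, with a median of 0.11. The list was mixed, with values from -1.54 to 0.68. In limma 5 had an unadjusted p under 0.05, of which 3 were higher and 2 lower after proline. Rbl2 encodes p130, the RB family member that represses E2F targets in quiescent cells. Its control arrays ran from 7.15 to 7.72 (median 7.34) and its proline arrays from 5.62 to 6.06 (median 5.87), with no overlap. Rbl2 fell by 1.54 on the log2 scale (SE 0.17, adjusted p = 0.0305), and its second probe set measured -1.26. By the median of its probe sets Rbl2 measured -1.398 and did not pass (adjusted p = 0.0654). E2f2, an activator E2F, ran from 7.69 to 8.14 in control and from 6.78 to 7.14 after proline. It fell by 0.99 (SE 0.14, adjusted p = 0.0405), and its second probe set measured -1.22. Rb1 itself measured 0.29 ± 0.18 and E2f1 -0.20 ± 0.22, and neither passed.

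The other CDK inhibitors held 0 of 4 past the threshold in limma and also 0 with unadjusted p under 0.05, with a median of 0.17. Cdkn1c (p57) measured 0.35 ± 0.15 and Cdkn2c (p18) -0.27 ± 0.14. Of 14 genes for turnover of cyclins, inhibitors and MYC, 1 rose and 13 did not pass, with a median of -0.02. In limma 4 of the 14 had an unadjusted p under 0.05, of which 3 were higher and 1 lower after proline. The gene that passed, Cul4a, encodes a scaffold of the ubiquitin ligase that marks p21 for degradation in S phase. Its replicates read 6.85 and 6.82 in control and 7.55 and 7.56 after proline, a rise of 0.72 ± 0.11 (adjusted p = 0.0446). This call was lost with a variance trend on intensity (adjusted p = 0.0684) and when genes were represented by the median of their probe sets (0.0548). Skp2, the p27 ligase subunit, measured -0.14 ± 0.18.

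In the p53 axis, which induces Cdkn1a, 0 of 16 genes passed in limma and 3 had an unadjusted p under 0.05, beside 22.1% of all genes, with a median of 0.07. The lowest p-values belonged to the p53 target Ei24 (-0.62 ± 0.13, adjusted p = 0.0853) and to the p53 antagonist Mdm4 (-0.68 ± 0.17, adjusted p = 0.109), and Mdm2, the p53 ubiquitin ligase and target, measured -0.41 ± 0.23. Repressors of the INK4 and ARF genes held 1 rise and 1 fall among 8, with a median of 0.05, and 2 of the 8 had an unadjusted p under 0.05 in limma. The chromatin protein gene Hmga2 rose by 1.84 ± 0.15 (adjusted p = 0.0247), from control arrays of 8.67 to 8.89 to proline arrays of 10.41 to 10.84. The T-box gene Tbx3, also a gene of naive pluripotency, fell by 2.64 (SE 0.42, adjusted p = 0.0493), from control arrays of 9.98 to 11.40 to proline arrays of 7.77 to 8.37. Its 5 probe sets were all below 0 and ran from -0.38 to -2.64. The call was lost by a narrow margin with median centring (adjusted p = 0.05005) and without _x_at and _s_at probe sets (0.0501), and by the median of its probe sets, at -2.09 (0.0995). The other 6 of this list, among them the Polycomb genes Bmi1 and Cbx7, did not pass.

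MYC partners and antagonists held 0 of 11 past the threshold in limma and 1 with unadjusted p under 0.05, with a median of -0.14. This was Mycl, the L-MYC gene, at 1.32 ± 0.28 (adjusted p = 0.0819), with control arrays from 7.20 to 8.09 and proline arrays from 8.75 to 9.25. By the median of its 3 probe sets Mycl measured 1.02 ± 0.58 (adjusted p = 0.430 in limma). The MAX partner gene Mxd3 measured -0.34 ± 0.17. Max, the obligate partner of MYC proteins, measured -1.76 ± 0.94 (adjusted p = 0.376), with 1 proline replicate far below the others. Its replicates read 9.57 and 9.92 in control and 9.39 and 6.59 after proline, and without proline replicate 2 the difference was -0.35. Max has 1 probe set here. Of 21 MYC target genes, mostly of ribosome assembly, 0 passed in limma and 5 had an unadjusted p under 0.05 (22.1% of all genes did). Of these 5, 4 were lower and 1 higher after proline. In the whole list 16 were below 0 (56.1% of all genes were), with a median of -0.18 beside -0.03 for all genes. The list ran from -0.65 to 0.70. Ppan measured -0.61 ± 0.11 (adjusted p = 0.0633), Rrp9 -0.49 ± 0.13 (adjusted p = 0.124) and Odc1, the polyamine synthesis gene, 0.04 ± 0.13.

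**Figure D4:**
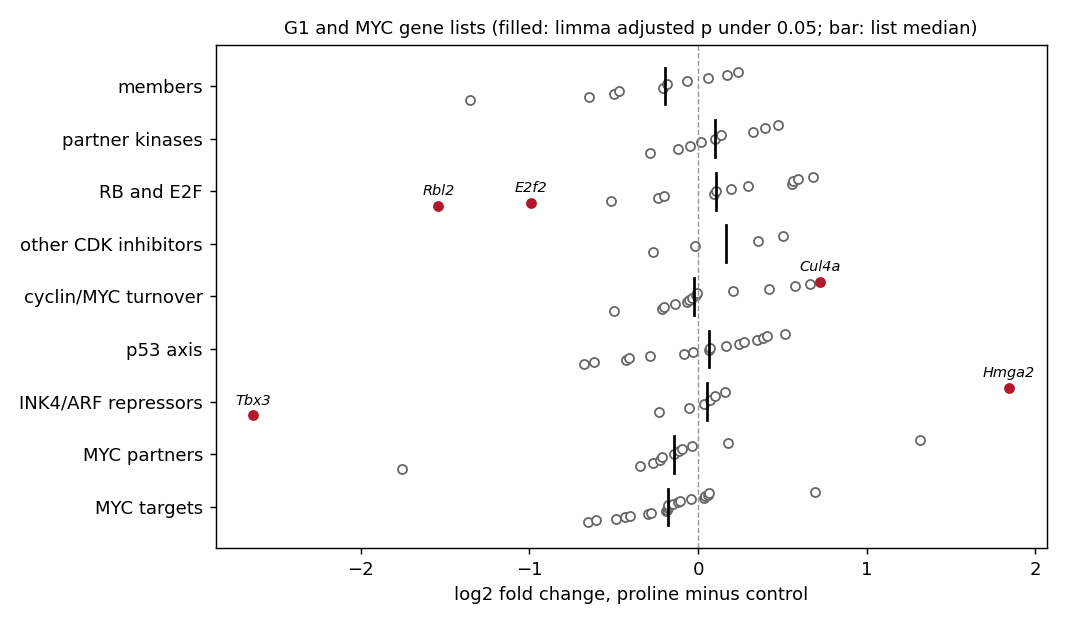
Log2 fold changes (proline minus control) of the 10 genes and of 8 lists of G1 and MYC genes, a point per gene, filled where the limma adjusted p was under 0.05, with a bar at each list's median. The 5 filled points are Rbl2, E2f2, Cul4a, Tbx3 and Hmga2, and the list medians lie between -0.19 and 0.17.

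Ccnd2 had the smallest p of the 10 genes, and the genes whose signals over the 12 arrays were most like it were Snapc4, Msrb2, Ppil4, Gli1 and Cbfa2t2. Their Pearson correlations with Ccnd2 were 0.992 for Snapc4, 0.989 for Msrb2, 0.988 for Ppil4 and 0.987 for Gli1 and Cbfa2t2, out of 12761 genes with a signal above the 40th percentile. The 12 arrays come from only 4 biological replicates and share the groups, so that these values are a description with no test. Since the 5 were picked for their likeness to Ccnd2 on these arrays, sharing its replicate pattern follows from the choice. Each had close control replicates and a lower proline replicate 2 than proline replicate 1. Gli1, which encodes a transcription factor of Hedgehog signalling, read 9.61 and 9.49 in control and 8.29 and 6.90 after proline.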

How the data were processed

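The authors deposited log2 signals of 45101 probe sets on 12 Affymetrix arrays, normalized across arrays. MAS5 and RMA are named per the submitters' processing notes, with no version and without saying which made the table; the log2 scale was read from the values, which ran from 2.10 to 14.8 with array medians of 5.99 to 6.03. Detection calls were not used here, and array number limits the precision.

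Probe sets with exactly 1 gene symbol (34958) were named from the platform annotation, 932 with several were not, and updating by gene ID through a RefSeq table of GRCm38.p6 changed 0 symbols. For each of 18194 genes the brightest probe set (mean over 12 arrays) stood for the gene; no filter on dim signals was applied. The 3 arrays of a biological replicate were averaged, and limma 3.58.1 (R 4.3.3) compared the groups (lmFit, eBayes, two-sided, no covariate, Benjamini-Hochberg over all genes, threshold 0.05; 2 residual and 2.60 prior degrees of freedom). Probe sets were also fitted each by itself. Errors are moderated standard errors, and intervals are at 95%. The script was tested on simulated data.

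The members and lists were chosen with earlier results of these data known. Named are the 10 genes, a short fixed set of partners, up to 4 genes past the threshold in each list or else the 2 with the smallest p, and the 5 genes most correlated with the member of smallest p. The partner Trp53 was not analysed here. Alternatives were quantile normalization, median centring, a filter on dim genes, other ways to represent a gene, the 12 arrays as units, a block on replicate number, a variance trend with intensity, and leaving out each biological replicate. Plots were drawn with matplotlib 3.10.9.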

Additional observations from a re-analysis of the deposited data

Results flagged for a closer look

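Of 50 sets of 6 arrays (25 probe sets in 2 groups), 1 held an array far from the others by Dixon's criterion for 6 values, and chance gives about 1 in 20. For Cdkn2a in the proline group, array 1a read 4.35 against 4.73 for the next lowest and 4.90 for the highest, a gap of 0.695 of the range. This is a dim probe set, and the arrays of a replicate are not independent samples.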

How the results depend on the processing

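The count of genes past the threshold was 351 by the median over probe sets, 45 with every probe set by itself, 3987 with the 12 arrays in a random block, 6804 with the 12 arrays as independent and 2039 with the replicate block, in place of 794. Leaving out any biological replicate, which leaves a single sample assumed to vary like the other group, gave 0 genes (range 0 to 0), with 2766 to 3676 at an unadjusted p under 0.05 in limma. Of the 10 genes, 3 passed with the random block and 4 with the arrays as independent (the D-type cyclins and Cdkn2a). With the replicate block 1 passed, Ccnd2 (adjusted p = 0.0489 in limma). Its adjusted p ran from 7.58e-05 to 0.186 over the alternatives that kept every biological replicate. Of the 25 probe sets, 11, 13 and 4 passed in the same 3 fits, beside 7611, 13637 and 3723 of all 45101. Under the other alternatives that kept every biological replicate, 0 of the 10 genes and 0 of the 25 probe sets passed. With median centring 0 of all probe sets passed. The replicate numbers were not taken as pairs, since the labels give only a number; replicate 2 minus replicate 1 correlated at 0.338 across genes between the groups.

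The D-type cyclins and Cdkn2a stayed below 0 under all alternatives, except that Cdkn2a is not tested with the filter on dim genes: Ccnd1 from -0.75 to -0.24, Ccnd2 from -1.83 to -0.87, Ccnd3 from -0.94 to -0.36 and Cdkn2a from -0.54 to -0.40. For these genes leaving out a replicate could not turn the sign, since all their proline arrays lay below all control arrays. The array units, the replicate block, the variance trend and the dim filter change only the errors and not the fold change. Leaving out single replicates turned the sign of 6 of the 10: Ccne1 ran from -0.42 to 0.056, Cdkn1a from -0.52 to 0.39, Cdkn1b from -0.20 to 0.67, Cdkn2b from -0.49 to 0.83, Myc from -0.66 to 0.25 and Mycn from -0.53 to 0.65. It also turned E2f1 (-0.42 to 0.018), Skp2 (-0.30 to 0.025) and Odc1 (-0.054 to 0.13), and the median over probe sets turned Rb1 (-0.0089) and Odc1 (-0.12). The cause was not tested.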
